A study of Rattus norvegicus with 8 samples.

Results

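Transforming growth factor beta (TGF-beta) signalling was examined in rat ovary through its 3 ligand genes, its receptor genes Tgfbr1 and Tgfbr2, and the SMAD genes Smad2, Smad3, Smad4, Smad6 and Smad7. Probes were taken by the gene name in the array files, which gave 12 of the 30350 probes with a value on every array. These 12 probes covered 9 of the 10 genes, among 26204 gene names on the array, and Smad6 was not analysed here. Tgfb2 had 3 probes and Tgfbr2 had 2. The study compared ovaries of female rats injected at 26 days of age with 50 IU of pregnant mare serum gonadotropin (PMSG, a hormone preparation with mainly follicle-stimulating activity) against ovaries of rats given the albumin phosphate buffer alone. The injected volume was 0.2 ml under the skin, and ovaries were removed 48 h later, at 28 days of age. There were 4 arrays of each group, 8 in all, and no strain was named. Nothing in the labels says that each array came from a separate animal, so the p-values measure the spread between these arrays, which may be partly technical.

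TGF-beta ligands are secreted in a latent form and, once released, bind the type II receptor Tgfbr2, which activates the type I receptor Tgfbr1. The activated receptor phosphorylates Smad2 and Smad3, which enter the nucleus with Smad4 and regulate transcription, while Smad6 and Smad7 hold the pathway back. In the ovary the pathway is known for its roles in granulosa and theca cell growth, steroid production and matrix formation.

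Arrays were of 1 colour, so each probe value is a spot brightness, given here as log2 signal minus the array's 75th percentile. That percentile lay between 768.9 and 1103 signal units. Each array carried 58717 non-control spots, of which 82.9% to 86.4% were well above background and 0 were saturated. All 6 granulosa cell and all 6 oocyte markers that were looked up were above background on all arrays. Groups follow the sample titles, and "PMSG" below means the arrays carrying that label. Of 5 markers of luteal or luteinised cells, 4 (Lhcgr, Star, Cyp11a1 and Ptgfr) were called lower there, as were 16.6% of all tested probes. This direction is opposite to the one generally known for gonadotropin treatment.

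The following 4 probes are shown because they come from Tgfb1, the ligand that was lower in PMSG, from the Tgfb2 probe that missed the threshold, and from Tgfbr2, whose probes at separate sites both missed it. Positions are on the rn4 build, each probe has 60 bases, and the files give no exon annotation. Capitals mark a TAG triplet that begins at base 39 of the first Tgfbr2 probe.
Tgfb1, chr1:80910123-80910182: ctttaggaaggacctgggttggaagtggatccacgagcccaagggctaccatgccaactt
Tgfb2 probe 2, chr13:102801650-102801709: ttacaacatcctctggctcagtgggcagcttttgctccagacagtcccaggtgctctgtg
Tgfbr2 probe 1, chr8:120593700-120593759: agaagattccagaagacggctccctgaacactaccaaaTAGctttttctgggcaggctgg
Tgfbr2 probe 2, chr8:120608686-120608745: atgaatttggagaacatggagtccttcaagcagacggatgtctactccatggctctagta
Read in 3 frames, the Tgfb2 probe had no stop triplet in any of the 3, the Tgfb1 probe and Tgfbr2 probe 2 had none in 2, and Tgfbr2 probe 1 had none in 1.

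Of the 8 member genes that could be tested, 6 differed between PMSG and control, 4 of them higher and 2 lower in PMSG. Smad7 and Tgfb2 (brightest probe) were more than 2-fold higher, and Tgfb3 and Tgfbr1 were slightly higher. Tgfb1 and Smad2 were lower, and Tgfbr2 and Smad4 did not pass. The Tgfb2 difference fell below 2-fold after normexp background correction (0.93 in log2) and without PMSG array 4 (0.90). After median centring 3 genes were called, Smad7 as higher and Tgfb1 and Smad2 as lower. A gene was called where its brightest probe had an adjusted p under 0.05 (limma, Benjamini-Hochberg adjustment over all 25303 tested probes). Over all tested probes 34.2% were called, 17.6% as higher and 16.6% as lower. Median centring turned this balance to 2914 higher and 5534 lower probes, from 4452 and 4206. The median log2 difference was 0.23 over the 8 genes and 0.11 over all tested probes. The members were chosen with earlier results of these data known, so the larger share among them is not evidence about the pathway.

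**Figure D1:**
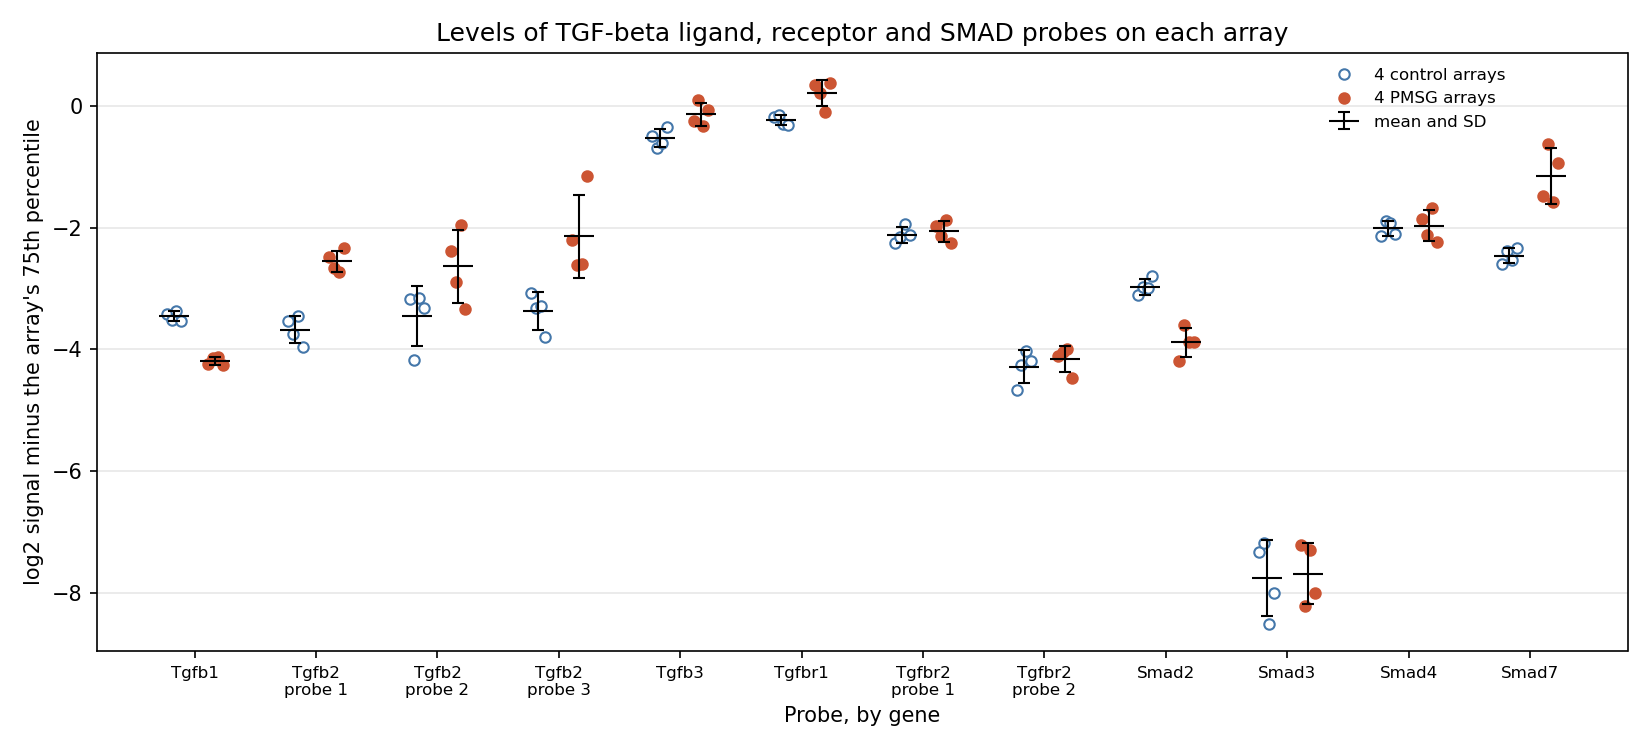
Level of each member probe on the 4 control arrays (open) and the 4 PMSG arrays (filled), as log2 signal minus the array's 75th percentile, with mean and SD. Probes of a gene are numbered along the chromosome. The groups are apart for Tgfb1, Smad2, Smad7, Tgfb3, Tgfbr1 and Tgfb2 probes 1 and 3, and Smad3 lies at the bottom, below background on every array.

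Tgfb1, the ligand best known from platelets, leukocytes and fibrosis, was lower in PMSG. Its levels were -3.42, -3.51, -3.36 and -3.54 on control arrays 1 to 4 and -4.24, -4.14, -4.12 and -4.26 on PMSG arrays 1 to 4. The groups did not overlap, and within each group the arrays stayed within a narrow band. The means were -3.46 ± 0.08 (SD, n = 4) and -4.19 ± 0.07 (SD, n = 4), which on the log2 scale differ by -0.73 with SE 0.09 and an adjusted p of 6.53e-04 (limma), or 1.65-fold lower. This probe is printed in 10 copies on each array, of which 9 or 10 were usable. Copies on 1 array varied with an SD between 0.07 and 0.18, less than the difference between the groups. The probe was dim, with median signals of 93.0 to 95.8 in control and 43.8 to 59.0 in PMSG, and after normexp background correction the log2 difference shrank to -0.34 (adjusted p = 0.0194).

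Tgfb2, a ligand made by granulosa and theca cells in the rodent ovary, was higher in PMSG. Its 3 probes lie apart along the gene, and all 3 had a higher mean in PMSG. The brightest, probe 3 (chromosome 13, 102816865 to 102816924), stood at -3.07, -3.32, -3.29 and -3.80 on the control arrays and at -2.20, -2.62, -2.60 and -1.16 on the PMSG arrays. The groups were apart, with PMSG array 4 well above the other arrays. PMSG exceeded control by 1.23 on the log2 scale (SE 0.33, limma adjusted p = 0.0221), or 2.34-fold. When 1 array was left out, the call was lost only without control array 4 (difference 1.08, adjusted p = 0.0620). It was close to the threshold without control array 2 (0.0497). Without PMSG array 4 the difference fell to 0.90, with an adjusted p of 0.00970. The probe also missed the threshold after median centring (0.0546).

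Tgfb2 probe 1 (chromosome 13, 102718952 to 102719009) gave the tighter measurement. It stood at -3.54, -3.75, -3.46 and -3.96 on the control arrays and at -2.48, -2.67, -2.73 and -2.34 on the PMSG arrays. Here no array stood apart, and the lowest PMSG array lay well above the highest control array. The difference reached 1.12 in log2 (SE 0.14, limma adjusted p = 8.11e-04), or 2.18-fold, and 0.75 after normexp correction. Tgfb2 probe 2, whose sequence is given above, overlapped between the groups. It ranged from -4.18 to -3.15 in control and from -3.33 to -1.95 in PMSG, with a log2 difference of 0.81 (95% confidence interval 0.03 to 1.60, limma adjusted p = 0.0989). Leaving out 1 array moved the difference between 0.57 (without control array 2, adjusted p = 0.216) and 1.05 (without PMSG array 4, adjusted p = 0.0321), and the probe passed only in the latter of these 8 fits. Its 2 copies differed on control array 2 with an SD of 0.98, the widest spread between copies of any of its arrays.

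Tgfb3, the third ligand, was modestly higher in PMSG. Levels were -0.50, -0.69, -0.60 and -0.35 in control and -0.25, 0.09, -0.33 and -0.07 in PMSG. The groups touch closely, with control array 4 just below PMSG array 3. The difference came to 0.40 in log2 (SE 0.13, limma adjusted p = 0.0439), or 1.32-fold. The call was lost without control array 1 (adjusted p = 0.0841), 2 (0.117) or 3 (0.0999) and without PMSG array 1 (0.0620), 2 (0.0977) or 4 (0.0629), and after median centring (difference 0.23, adjusted p = 0.367).

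The 3 ligands thus did not move together. Because a ratio of probes on the same array does not depend on how that array is scaled, the change of each ratio was tested as well. Each shift combines the differences of both members of the pair, so it is not separate evidence that they changed. Smad3 and Smad6 gave no value for their pairs, which left 4 ratios. The log2 ratio of Tgfb1 to Tgfb2 (brightest probe) was -0.09 ± 0.26 (SD, n = 4) in control and -2.04 ± 0.74 (SD, n = 4) in PMSG. That is a shift of -1.95 against Tgfb1, with all 4 PMSG arrays (-3.10 to -1.51) below all 4 control arrays (-0.35 to 0.26). The ratio of Tgfb1 to Tgfb3 shifted by -1.12, from -2.92 ± 0.19 (SD, n = 4) to -4.05 ± 0.20 (SD, n = 4), again without overlap. Both reached 0.0286, the smallest p that the exact two-sided permutation test can give with 4 arrays against 4, which is 0.0571 after adjustment over the 4 ratios. Normexp correction reduced the shifts to -1.26 and -0.74.

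The ratio of Tgfb2 to Tgfb3 shifted by 0.83 (exact permutation p = 0.114, adjusted 0.143), and the groups overlapped. This value rested on single arrays, with 0.52 without PMSG array 4 (exact permutation p = 0.229) and 1.07 without PMSG array 2 (exact permutation p = 0.0286, not adjusted). The ratio of the receptors Tgfbr1 and Tgfbr2 shifted by 0.38 (exact permutation p = 0.143, adjusted 0.143). No ratio, including those with Tgfb1, reached an adjusted p under 0.05, so a different response within a pair was not resolved by this test.

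**Figure D2:**
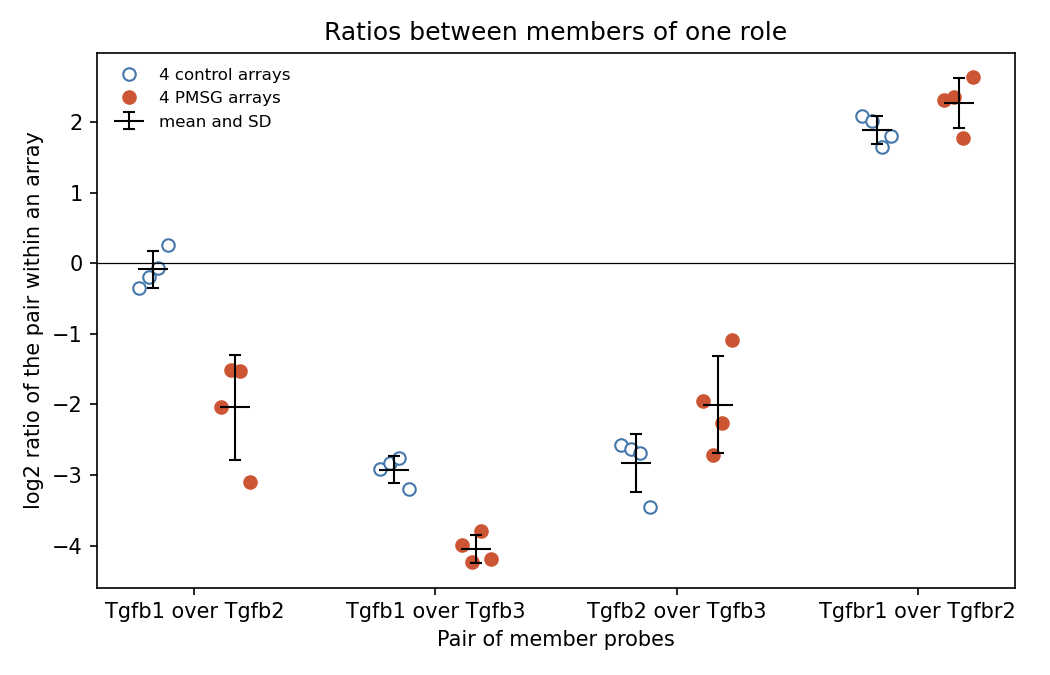
Log2 ratio of 4 pairs of member probes within each array, for 4 control (open) and 4 PMSG arrays (filled), with mean and SD. Both ratios with Tgfb1 on top are lower on all PMSG arrays, while the other pairs overlap between the groups; the height of a ratio also reflects probe brightness and is not a ratio of transcripts.

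Among the receptors, Tgfbr1 was higher in PMSG. Tgfbr1, also called ALK5, is the kinase that phosphorylates Smad2 and Smad3. Its levels were -0.18, -0.15, -0.30 and -0.32 in control and 0.34, 0.21, -0.10 and 0.38 in PMSG. The groups did not overlap, though PMSG array 3 came close to the control arrays. The difference came to 0.44 in log2 (SE 0.12, limma adjusted p = 0.0265), or 1.36-fold, for the probe on chromosome 5 (64033998 to 64034057). The call was lost without control array 1 (adjusted p = 0.0543), 3 (0.0661) or 4 (0.0734), without PMSG array 1 (0.0690) or 2 (0.0560), and after median centring (difference 0.27, adjusted p = 0.270).

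Tgfbr2, the ligand-binding receptor, did not pass at either probe. Probe 1 stood at -2.26, -2.16, -1.94 and -2.13 in control and at -1.97, -2.15, -1.88 and -2.25 in PMSG. Probe 2 stood at -4.67, -4.26, -4.03 and -4.20 in control and at -4.12, -4.04, -3.99 and -4.47 in PMSG. In both probes the groups lay over each other. The log2 differences were 0.06 (95% confidence interval -0.21 to 0.34, limma adjusted p = 0.709) and 0.13 (-0.25 to 0.52, limma adjusted p = 0.553), and both turned negative after quantile normalization or median centring. The intervals leave room for small changes in either direction but not for a 2-fold one.

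Smad2, a receptor-regulated SMAD, was lower in PMSG. Its probe (chromosome 18, 73236202 to 73236261) stood at -3.12, -2.98, -2.99 and -2.80 in control and at -4.19, -3.60, -3.88 and -3.88 in PMSG. Every PMSG array lay below every control array. The means were -2.97 ± 0.13 (SD, n = 4) and -3.89 ± 0.24 (SD, n = 4), which on the log2 scale differ by -0.92 with SE 0.14 and an adjusted p of 0.00170 (limma), or 1.89-fold lower. Normexp correction reduced the difference to -0.52 (adjusted p = 0.00322).

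Smad3, the other receptor-regulated SMAD, could not be measured. Its only probe (chromosome 8, 67804038 to 67804097) passed the background test on 0 of 8 arrays, and its signals were 2.79 to 8.11 in control and 3.63 to 7.60 in PMSG. Its 2 copies differed on an array with a median SD of 0.82. Whether Smad3 changed therefore cannot be read from these arrays, and the level of the probe does not show that the transcript was absent.

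Smad4, the partner shared by all receptor-regulated SMADs, did not pass. It stood at -2.13, -1.89, -1.92 and -2.10 in control and at -1.86, -2.12, -1.67 and -2.24 in PMSG, and the PMSG arrays spread on both sides of the control arrays. The log2 difference was 0.04 (95% confidence interval -0.29 to 0.37, limma adjusted p = 0.854), and its sign turned after quantile normalization or median centring.

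Smad7, the inhibitory SMAD that blocks Tgfbr1 and is itself a well-known feedback target of TGF-beta, was higher in PMSG. It stood at -2.60, -2.38, -2.54 and -2.33 in control and at -1.48, -0.62, -1.58 and -0.93 in PMSG. All PMSG arrays were higher, and within PMSG arrays 2 and 4 lay above arrays 1 and 3. The means were -2.46 ± 0.13 (SD, n = 4) and -1.15 ± 0.45 (SD, n = 4), which on the log2 scale differ by 1.31 with SE 0.22 and an adjusted p of 0.00247 (limma), or 2.48-fold, for the probe on chromosome 18 (72323004 to 72323062). The absolute difference exceeded that of 92.6% of all tested probes.

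**Figure D3:**
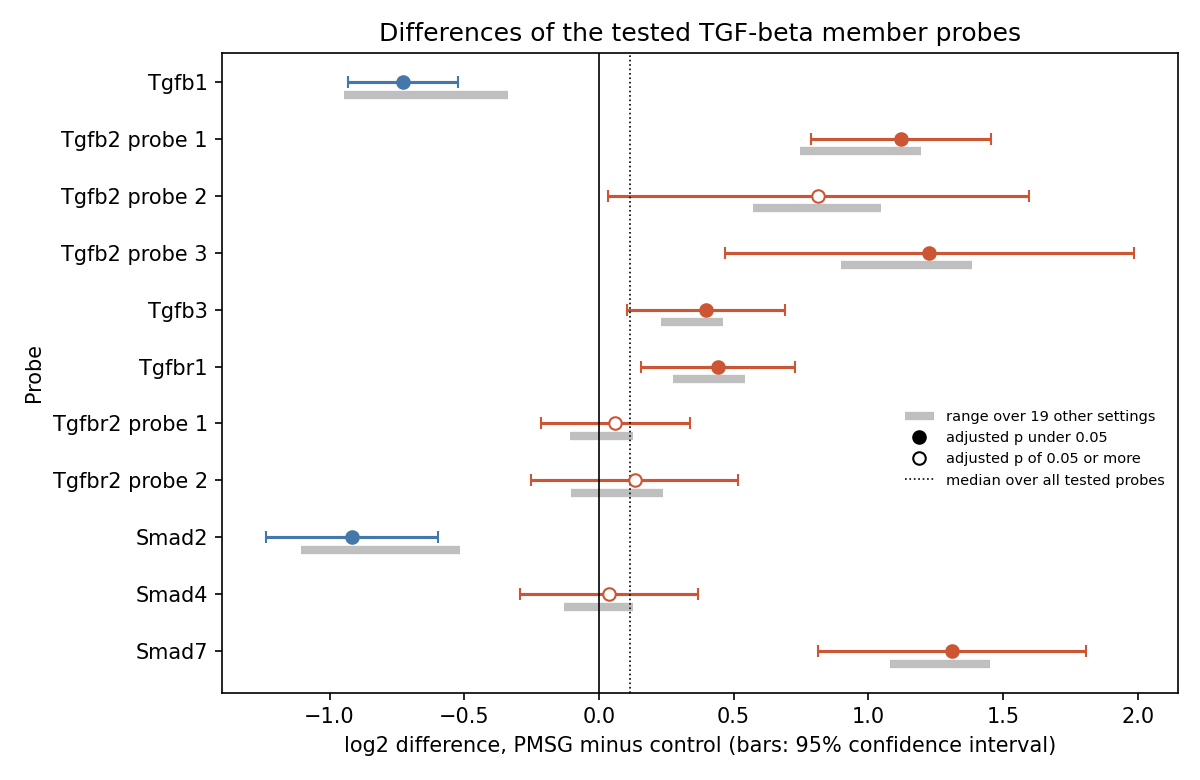
Log2 difference between PMSG and control for the 11 tested member probes, with 95% confidence interval (coloured bars), and the range over 19 other settings (grey). Filled points have an adjusted p under 0.05; Tgfb1 and Smad2 lie left of 0, Tgfb2 and Smad7 lie furthest right, and both Tgfbr2 probes and Smad4 lie at 0 within their intervals.

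Of the 11 tested probes 7 did not overlap between the groups, where 36.6% of all tested probes did not. The calls of Tgfb1, Smad2, Smad7 and Tgfb2 probe 1 held under all 19 other settings tried. Arrays lay in 2 rows of a slide, each row with 2 arrays of each group. The columns were not balanced, as column 1 held PMSG arrays 1 and 2 and column 2 held control arrays 1 and 2. Column 3 held control and PMSG array 3, and column 4 held control and PMSG array 4. A part of column position in the differences was not tested. Within rows 1 and 2 the log2 differences were -0.60 and -0.85 for Tgfb1, 1.16 and 1.09 for Tgfb2 probe 1, -0.85 and -0.98 for Smad2 and 1.26 and 1.36 for Smad7. They were 0.40 and 0.39 for Tgfb3 and 0.29 and 0.60 for Tgfbr1, so the direction was the same in both rows for these genes.

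Ovary RNA mixes many cell types, and fewer cells of a type cannot be told apart from less RNA per cell. Several cell type markers differed between the same groups. Over all tested probes 17.6% were called higher and 16.6% lower, so a count of 1 in such short lists is not read as a result. Leukocyte and macrophage markers, whose cells are a known source of Tgfb1, had 4 of 7 higher and 0 lower, with a summed level of 6.99 to 8.74 in control and 11.2 to 12.6 in PMSG. Summed levels are in multiples of the array's 75th percentile and mostly reflect the brightest genes of a list. Platelet markers had 1 of 4 (25%) higher, Itga2b, with sums of 1.18 to 1.86 and 2.25 to 2.83.

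Granulosa markers had 1 of 6 higher and 2 lower (sums of 98.2 to 159.7 in control and 89.2 to 114.7 in PMSG), and theca markers 3 of 5 higher (93.2 to 109.4 and 95.7 to 119.2). The theca sums mostly reflect Col1a1 and Cyp17a1, which were not called, while the dimmer Insl3 was higher by 2.60 in log2. All 6 oocyte markers were higher (2.34 to 4.19 and 8.24 to 17.6). Of 5 markers of luteal or luteinised cells, 4 were lower (241.5 to 268.6 and 110.8 to 168.0). Endothelial markers had 1 of 6 higher and 2 lower (20.1 to 23.6 and 16.7 to 18.2), and fibroblast and smooth muscle markers 3 of 7 higher (33.9 to 57.3 and 41.9 to 72.4). Epithelial markers had 1 of 5 higher (18.2 to 23.9 and 26.5 to 38.6), and red blood cell markers 1 of 4 lower (70.3 to 96.8 and 55.6 to 90.5). The part of cell composition in the differences of the member genes was not tested.

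The other genes of the pathway were followed through 6 lists by role. Of 77 listed genes 73 were tested, and 23 of these (31.5%) were called, 14 higher and 9 lower, close to the 34.2% over all probes. Their median log2 difference was 0.10, near the 0.11 of all tested probes. After median centring 14 were called.

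Genes that store and release latent TGF-beta had 2 higher, 1 lower and 9 not passing of 12 tested (median 0.20). The share called was 25%, against 34.2% over all tested probes. Adamts1, a secreted protease, fell by 1.31 on the log2 scale (SE 0.25, limma adjusted p = 0.00474), from 3.56 to 3.85 across control arrays to 1.75 to 2.94 across PMSG arrays. Itgb6, a subunit of an integrin that releases TGF-beta from its latent complex, was higher by 0.86 (adjusted p = 0.0107, 0.0632 after median centring). Ltbp4, which tethers the latent complex to the matrix, was higher by 0.84 (adjusted p = 0.00224). All 3 genes were without overlap between the groups.

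Co-receptors and related receptors had 1 higher, 1 lower and 8 not passing of 10 tested (median 0.10). The share called was 20%, against 34.2% over all tested probes. Eng, the co-receptor endoglin of endothelial cells, was almost constant in control at 0.03 ± 0.02 (SD, n = 4) and stood at -0.87 ± 0.27 (SD, n = 4) in PMSG. The difference came to -0.90 in log2 (SE 0.14, limma adjusted p = 0.00186). Other endothelial markers differed in both directions, with Kdr at -0.43 and Tek at -1.20 called lower, Vwf at 0.50 called higher, and Pecam1 (-0.16), Cdh5 (0.54) and Emcn (-0.46) not passing. The part of endothelial RNA in the Eng difference was not tested. Acvr2b, an activin type II receptor, was higher by 0.80 (adjusted p = 0.00424), with 0.45 (adjusted p = 0.102) at its other probe. The co-receptor Tgfbr3, betaglycan, had a difference of 0.61 and just missed the threshold (adjusted p = 0.0589). None of the 3 other SMADs on the array passed, with differences of 0.12 for Smad1, 0.35 for Smad5 and 0.44 for Smad9 and limma adjusted p-values of 0.529, 0.114 and 0.109. These are the SMADs of bone morphogenetic protein signalling.

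SMAD cofactors and corepressors had 4 higher, 1 lower and 7 not passing of 12 tested (41.7% called against 34.2% over all tested probes, median 0.08). Runx1, a transcription factor that binds SMADs, fell by 1.05 on the log2 scale (SE 0.14, limma adjusted p = 9.10e-04). Mecom, which encodes the repressor EVI1, was higher by 1.01 (adjusted p = 0.0129, 0.0718 after quantile normalization), and by 0.62 after normexp correction. Tgif1, a corepressor of Smad2, was higher by 0.57 (adjusted p = 0.00785, 0.0735 after median centring). Turnover and inhibitor genes had 4 higher, 2 lower and 8 not passing of 14 tested (42.9% called, median 0.13). Fkbp1a, which keeps the type I receptor inactive, fell by 0.86 (adjusted p = 8.52e-04), and Usp15, a deubiquitinase of the pathway, fell by 0.71 (adjusted p = 0.00320), with -0.31 (adjusted p = 0.123) at its other probe. Bambi, a decoy receptor without kinase, was higher by 0.72 (adjusted p = 0.0311), but not without control array 1 (0.0637) or PMSG array 1 (0.0636) or 2 (0.0778), nor after median centring (0.114).

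Genes known as targets of TGF-beta in various cells had 3 higher, 4 lower and 15 not passing of 22 tested (median -0.02). The share called, 31.8%, was close to the 34.2% over all tested probes. Cdkn2b, a cell cycle inhibitor, fell by 2.98 (SE 0.11, limma adjusted p = 1.16e-05), and by 1.89 at its other probe. Id2, a transcriptional inhibitor that TGF-beta represses in many epithelia, fell by 2.21 (SE 0.15, limma adjusted p = 6.66e-05). Junb, an AP-1 transcription factor, stood at 3.35, 3.20, 3.37 and 3.43 in control and at 1.90, 2.63, 1.31 and 1.88 in PMSG, and fell by 1.40 (SE 0.25, limma adjusted p = 0.00336). The groups of all 3 genes were apart.

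Named because of their values, Timp1, an inhibitor of matrix proteases, fell by 1.35 on the log2 scale (limma adjusted p = 1.43e-04), while Tgfbi, a matrix protein induced by TGF-beta, and Ctgf, a matricellular growth factor, were higher by 1.33 (limma adjusted p = 1.15e-04) and 0.96 (limma adjusted p = 0.00436). The collagen genes Col1a1 (0.06) and Col1a2 (0.14) did not pass, and Col3a1 was just past the threshold at 0.35 (limma adjusted p = 0.0467). Probes of Cdkn1a differed, with -0.10 (adjusted p = 0.634) at the brightest and -1.74 (adjusted p = 4.34e-04) at the other.

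**Figure D4:**
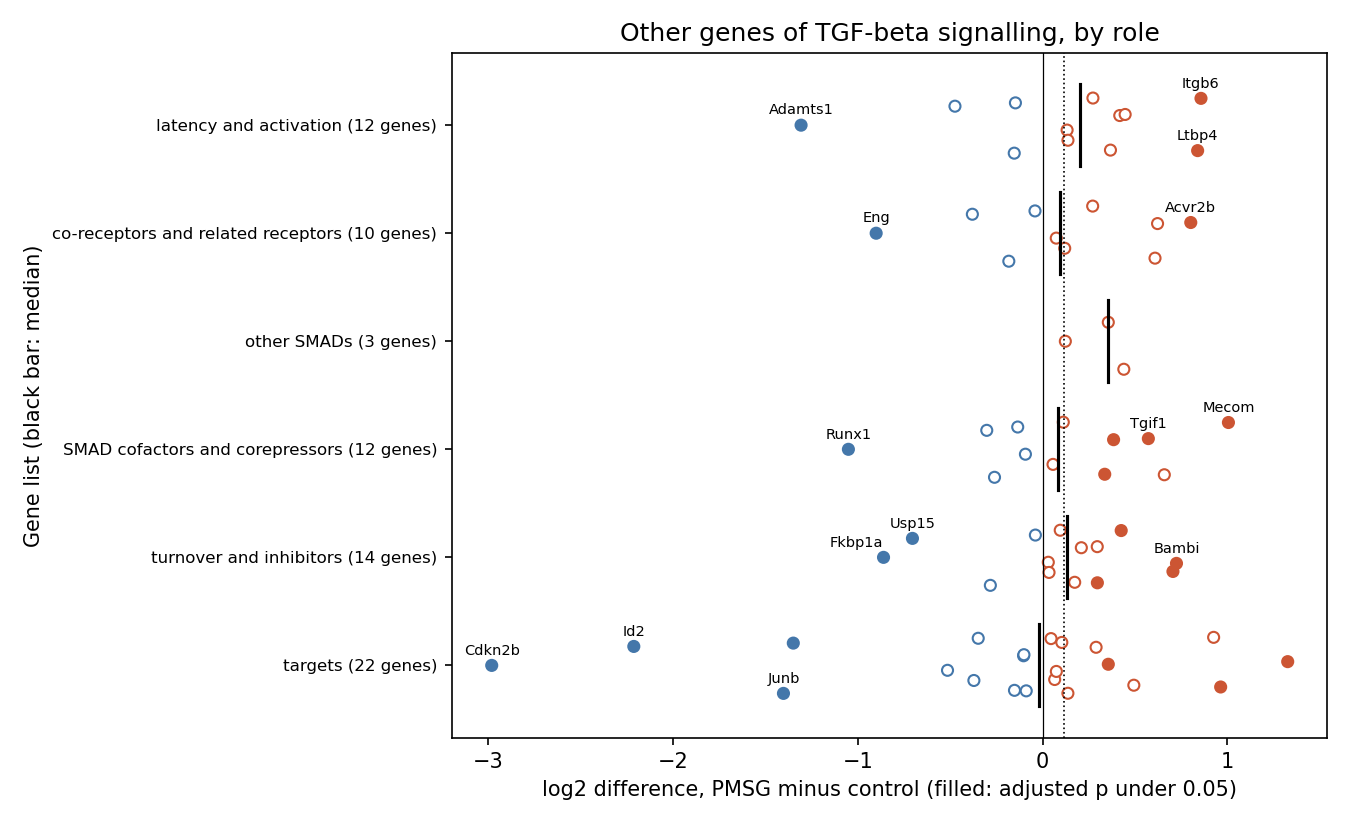
Log2 difference between PMSG and control for 73 other genes of TGF-beta signalling, by role, 1 point per gene at its brightest probe; filled points have an adjusted p under 0.05 and the 3 largest of these per list are named. Black bars are list medians, from -0.02 to 0.35, and the dotted line is the median over all tested probes, 0.11.

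Sequence before the annotated RefSeq start, on the GRCr8 build, was at hand for 9 of the 10 genes. The 250 bases before each start were searched for 7 motifs on both strands. The windows of Tgfb1 and Tgfb2 are shown because these ligands moved in opposite directions. The motifs were TGACGTCA (the cAMP response element), TGACG (its shorter core), GTCTAGAC and CAGAC (SMAD binding), GGGCGG (GC box), TATAAA and CCAAT. Capitals mark a match.
Tgfb1, chr1:90324062-90324311, plus strand: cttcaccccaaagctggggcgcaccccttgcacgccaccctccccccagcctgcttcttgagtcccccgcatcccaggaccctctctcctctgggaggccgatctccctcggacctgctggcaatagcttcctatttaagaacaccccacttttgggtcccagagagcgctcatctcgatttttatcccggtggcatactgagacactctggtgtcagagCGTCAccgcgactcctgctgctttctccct
Tgfb2, chr13:100792686-100792935, minus strand: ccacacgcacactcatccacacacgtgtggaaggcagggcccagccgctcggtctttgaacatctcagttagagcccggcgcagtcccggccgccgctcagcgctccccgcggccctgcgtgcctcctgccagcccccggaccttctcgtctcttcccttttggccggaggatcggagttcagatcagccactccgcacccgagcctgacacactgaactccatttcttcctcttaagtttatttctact
The Tgfb1 window holds 1 core TGACG, on the minus strand from 30 bases before the start, and the Tgfb2 window holds none of the 7 motifs.

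Among the 9 genes the core TGACG was found in Tgfb1 and Smad3, and in 18.2% of 33469 promoters. The full element TGACGTCA, which contains the core, was found in 0 of 9 and in 1.59% of promoters. The SMAD motif CAGAC was found in 0 of 9 and in 42.9% of promoters, and the palindrome GTCTAGAC, which overlaps it in part, in 0 of 9 and in 0.173%. GGGCGG was found in Tgfbr1, Tgfbr2, Smad2, Smad3 and Smad7 (30.5% of promoters), CCAAT in Tgfbr1, Tgfbr2 and Smad2 (34.0%), and TATAAA in Smad4 alone (12.9%). The Smad4 window was 30.8% G and C, against 48.8% to 82.8% in the other windows, and it ends in a run of pyrimidines followed by AG. Whether the Smad4 window is a promoter was not tested, so its match may not be a promoter motif. No motif was found in all 4 genes that were higher or in both genes that were lower, and these letters say nothing about binding.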

How the data were processed

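The deposited scanner files hold spot intensity for each array, written by Agilent's Feature Extraction software, version 11.5.1.1, with detrending and surrogate values for dim spots, per the file headers; probe coordinates are on rn4. Well-above-background, saturation and outlier calls are other 0 or 1 values in the deposited files. The authors also deposited log2 values per probe, used as an alternative. Their difference from log2 signal minus the 75th percentile had a median of 0.004 to 0.015 per array. Single probes differed more, with an SD over probes of 0.11 to 0.21 per array. All columns of that table were used, leaving 0 unused.

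Control spots and outlier spots were left out, log2 processed signals of a probe's spots averaged, and each array's 75th percentile subtracted. A probe's background call for 1 array required a share of 0.5 or more of its spots to pass, and probes passing on 4 or more arrays entered the fit. The comparison used limma (version 3.58.1, R 4.3.3) without covariates, at an adjusted p of 0.05, and ratios with an exact permutation test. The procedure was tested on simulated data.

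The 9 members with a probe were described, with all their probes, and Smad6 was not analysed here. Of each pathway list the 3 called genes with the largest differences were named, and other genes only where stated. Members and lists were chosen with earlier results of these data known. Listed genes Itgav, Ski and Tgif2 were not analysed here, Trim33 was below background, and 1 target gene is not reported here. Alternatives were other background corrections, scalings, filters, blocks, weights, the probe rule and leaving out each array. Same-numbered arrays correlated in their deviations at 0.04, 0.04, 0.18 and -0.02, so the numbers were not treated as pairs.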

Additional observations from a re-analysis of the deposited data

Results flagged for a closer look

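Among 60 groups of 4 values examined, 2 had an array far from the others, where chance gives about 1 in 20 groups, here 3. For Tgfb2 probe 2, control array 2 stood at -4.18 against -3.32 to -3.15 on the other control arrays, a gap of 0.836 of the group's range. For the ratio of Tgfb2 to Tgfb3, control array 4 stood at -3.45 against -2.69 to -2.57, a gap of 0.871 of the range. A cause was not tested for either.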

How the results depend on the processing

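The member genes called numbered 6 with the chosen settings, 3 after median centring (Tgfb1, Smad2 and Smad7) and 3 with the replicate block, which keeps the same 3 genes; leaving out 1 array gave 4 to 6. The pathway genes called numbered 23, 14 after median centring, and 19 to 29 when 1 array was left out. The probes called over the whole array numbered 8658, 7346 with the replicate block and 6552 to 11382 when 1 array was left out. Of called probes 51.4% were higher, and 34.5% after median centring and 57.3% when scaled on probes detected on all arrays. Without PMSG array 4, with the scaling unchanged, 61.3% were higher. Values whose sign turned were those of Tgfbr2 probe 2 (-0.10 with quantile normalization, -0.035 with median centring), Tgfbr2 probe 1 (-0.0056, -0.11, and -4.20e-04 to 0.13 when 1 array was left out, the lowest without PMSG array 3) and Smad4 (-0.018, -0.13, and -0.063 to 0.13 when 1 array was left out, with -0.0042 without control array 1 and the lowest without PMSG array 3). The cause of these shifts was not tested. The replicate block and the slide row block also ended the call of Tgfb3 (adjusted p = 0.0832 and 0.0637), and the replicate block those of Tgfbr1 (0.0521) and Tgfb2 probe 3 (0.0611). With no filter on dim probes Tgfb3 had an adjusted p of 0.0588. Normexp correction shrinks differences of dim probes, which limits how exactly the sizes for Tgfb1, Tgfb2 and Smad2 are known.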
